A study of Mus musculus with 40 samples.

Results

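The metalloproteinases and tissue inhibitors of metalloproteinases described here are 10 mouse genes, chosen by name: the inhibitors Timp1, Timp2, Timp3 and Timp4, the secreted gelatinase Mmp2, the membrane-type matrix metalloproteinases Mmp14, Mmp15 and Mmp16, and the secreted aggrecanases Adamts1 and Adamts4. All probes that the platform annotation assigns to these symbols were taken, which gave 17 of 45260 probes for 9 of the 10 genes, and Mmp15 was not analysed here because no probe carries its symbol. Of the 17 probes, 13 passed the filter on dim probes and were tested, among 21740 tested in all, and each of the 9 genes kept at least 1. Levels were read on 40 Illumina MouseWG-6 BeadChips hybridised with RNA of neural stem cells, which had been taken from the mouse telencephalon at E13.5 and grown on laminin with FGF-2 and EGF, each at 20 ng/ml. Every culture, controls included, carried floxed alleles of Id1 and Id2 (Id1L/L, Id2L/L), was Id3-/- and held Cre-ER at the Rosa locus, on a 129/Svj;C57Bl/6 hybrid background, so Id3 was absent throughout and the recombinase, driven from a ubiquitously expressed site, could delete Id1 and Id2 once 4-OHT (4-hydroxytamoxifen, 250 nM) was added. Control cultures received the ethanol vehicle, and both agents were sampled at 6, 12, 18, 24, 48, 96 and 144 h. Agent and time together define 14 groups, of 3 arrays each (replicates A, B and C) up to 96 h and of 2 (A and C) at 144 h. No group of 4-OHT-treated cells with wild-type Id genes or without Cre-ER was analysed here. An action of 4-OHT or of active Cre itself therefore cannot be told apart from the deletion. Whether replicates were separate cultures or animals is not in the labels, so the spread behind every p-value may be a technical one.

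Matrix metalloproteinases and ADAMTS enzymes are zinc-dependent proteases that cut proteins of the extracellular matrix and of the cell surface. TIMP proteins bind their catalytic sites and block them, and the ratio of inhibitor to enzyme sets how much proteolysis takes place around a cell. MMP14 activates the proenzyme of MMP2 on the cell surface in a complex that includes TIMP2, while TIMP3 is held in the matrix and is the main tissue inhibitor of ADAMTS enzymes. In the brain, neural stem cells sit on a laminin-rich matrix, and the aggrecanases cut the lecticans that surround neurons and glial precursors.

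Of the 4 inhibitor genes, 3 lie inside synapsin genes in the RefSeq annotation of the mouse build GRCm38.p6: Timp1 within Syn1, Timp3 within Syn3 and Timp4 within Syn2. Timp2 overlaps Cep295nl. The 250 bases before the annotated start of each inhibitor gene are shown because the 4 genes are compared with each other below and because Id proteins hold back basic helix-loop-helix proteins, whose E proteins bind the E-box CANNTG. Sequences are from RefSeq (GRCm38.p6), run 5′ to 3′ on the strand of the gene, and have every CANNTG in capitals. Timp1 is at chrX:20869916-20870165 on the plus strand, Timp2 at chr11:118355412-118355661 on the minus strand, Timp3 at chr10:86300162-86300411 on the plus strand and Timp4 at chr6:115252206-115252455 on the minus strand.
Timp1: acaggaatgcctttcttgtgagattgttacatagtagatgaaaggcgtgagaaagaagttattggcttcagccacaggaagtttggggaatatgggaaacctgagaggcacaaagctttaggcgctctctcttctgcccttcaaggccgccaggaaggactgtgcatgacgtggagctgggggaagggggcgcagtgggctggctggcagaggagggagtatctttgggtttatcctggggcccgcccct
Timp2: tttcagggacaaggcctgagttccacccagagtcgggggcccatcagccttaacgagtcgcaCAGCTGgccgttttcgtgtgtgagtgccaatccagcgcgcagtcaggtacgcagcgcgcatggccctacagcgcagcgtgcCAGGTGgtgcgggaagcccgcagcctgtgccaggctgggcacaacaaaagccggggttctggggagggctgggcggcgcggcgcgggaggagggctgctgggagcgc
Timp3: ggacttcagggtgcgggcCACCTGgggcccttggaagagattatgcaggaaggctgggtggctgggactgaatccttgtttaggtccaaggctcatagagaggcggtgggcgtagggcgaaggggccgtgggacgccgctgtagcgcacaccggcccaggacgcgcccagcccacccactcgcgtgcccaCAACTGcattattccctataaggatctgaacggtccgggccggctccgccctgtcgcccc
Timp4: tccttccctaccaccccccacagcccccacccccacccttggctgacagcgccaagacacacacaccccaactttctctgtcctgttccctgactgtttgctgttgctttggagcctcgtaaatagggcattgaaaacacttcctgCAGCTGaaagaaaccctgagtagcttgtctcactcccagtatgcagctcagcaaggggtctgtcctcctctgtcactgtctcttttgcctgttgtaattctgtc
CANNTG is its own reverse complement as a pattern, so 1 search covers both strands. It was absent from the Timp1 window, occurred 2 times in Timp2 (CAGCTG and CAGGTG) and in Timp3 (CACCTG and CAACTG), and occurred 1 time in Timp4 (CAGCTG, 104 bases before the start). Of 32851 RefSeq promoter windows of the same length, 66.2% held CANNTG, 13.0% held CAGCTG and 17.2% held CAGGTG or its reverse complement CACCTG. The pattern TGANTCA, read by AP-1 factors and searched on both strands, was in none of the 4 windows and in 6.75% of all windows. These matches are letters in a window and not measured sites. Of the 10 genes, 7 matched a RefSeq promoter entry.

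The arrays detected between 15884 and 19186 probes at a detection p under 0.01, apart from a dim one, vehicle C at 6 h, with 12947. From 18 h onwards the arrays of replicates A and B carry 1 run of numbers in the labels and those of replicate C another, and the labels do not say whether these are batches. The deleted genes followed their labels: Id2 (ILMN_1228557) was lower with 4-OHT from 18 h (4.02-fold, limma adjusted p = 1.02e-05), and Id1 (ILMN_2672190) was not detected on any 4-OHT array at 96 and 144 h (at 96 h at least 24.2-fold lower with an adjusted p of 5.33e-15, at 144 h at least 23.8-fold with 1.51e-12). Microglial markers were below the filter in 5 of 5 cases, endothelial markers in 4 of 5 and markers of mural cells and fibroblasts in 6 of 7. All 8 neural stem cell markers were measured.

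At 96 and 144 h transcripts of Timp4, Timp1 and Adamts1 were lower with 4-OHT than with vehicle, and those of Mmp16 were higher. At 96 h the brighter Mmp16 probe (limma adjusted p = 0.0802) and the dimmer tested Adamts1 probe (0.203) were not called. Mmp2, Mmp14, Adamts4, Timp2 and Timp3 were not called at any time against the vehicle arrays of the same time. In probes, 4 of 13 were lower and 1 higher at 96 h, where 4.50% of all tested probes were called (2.10% lower, 2.41% higher). At 144 h 5 were lower and 2 higher, where 6.61% of all were called (3.20% lower, 3.41% higher). The median difference (4-OHT minus vehicle, log2) over the 13 probes was -0.50 at 96 h and -0.79 at 144 h. Over all tested probes it was 0.01 at both times. The members were chosen with earlier results of these data known. Their counts and medians beside those of all probes are therefore a description and no test of the set. No member was called at 6, 12, 18, 24 or 48 h in limma, where 0, 0, 0.0736, 0.248 and 0.952% of all probes were. At an unadjusted p under 0.05 the members' probes at those times numbered 1, 1, 2, 1 and 4 of 13, where 6.82, 5.08, 2.95, 3.79 and 6.24% of all probes passed that threshold. In limma with the replicate letter as a block, 0, 0, 1, 1, 3, 8 and 9 members' probes were called at the 7 times, where that fit called 0, 0.0230, 0.639, 1.50, 3.50, 11.7 and 16.3% of all probes. With the runs of label numbers as the block the members' counts were 0, 0, 1, 1, 4, 8 and 9, against 0, 0.0368, 0.828, 1.77, 3.97, 12.2 and 16.8% of all. These differences are amounts of RNA in whole cultures, in which fewer cells of a type and less RNA per cell cannot be told apart.

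**Figure D1:**
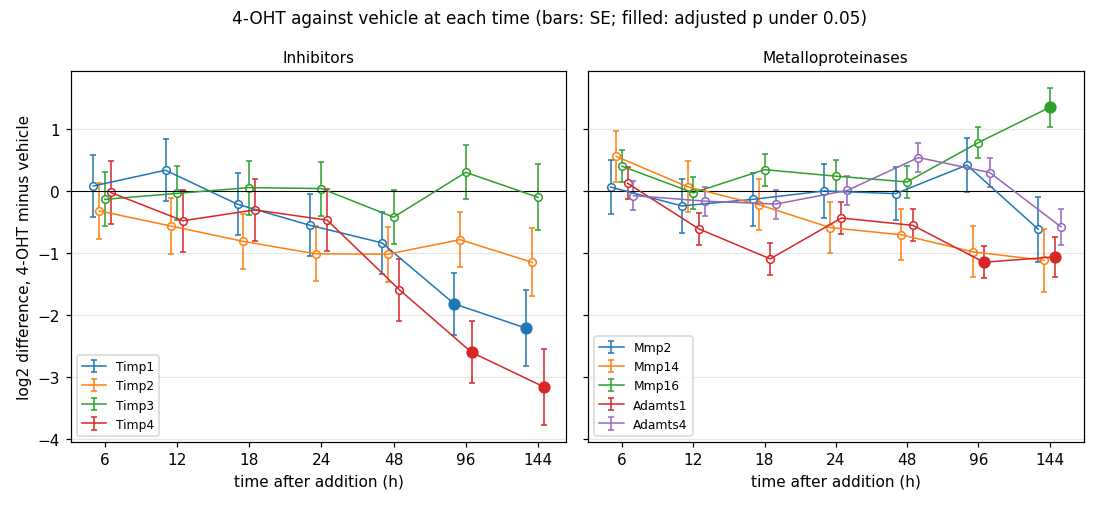
Differences between 4-OHT and vehicle (vertical axis, log2) at each time (horizontal axis, h) for the lead probe of each gene, inhibitors on the left and proteases on the right. Bars are the standard errors of the limma fit over 40 arrays, and filled circles have an adjusted p under 0.05. Timp4 reached -3.16 and Timp1 -2.22 at 144 h, Timp3 stayed between -0.42 and 0.30, and Mmp16 reached 1.35.

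Timp4, an inhibitor with a restricted distribution that includes heart and brain, had the lowest called differences of the 4. Its probe ILMN_2665133 read 8.64, 8.62 and 8.47 with 4-OHT and 8.62, 8.59 and 8.60 with vehicle at 6 h (normalized log2 intensity, replicates A, B and C in this order here and below). At 48 h the 4-OHT arrays read 6.29, 6.48 and 7.38 and the vehicle arrays 8.20, 8.10 and 8.65. The groups overlapped at 6 h and did not overlap at 12 h (difference -0.48, limma adjusted p = 0.977). They overlapped again at 18 and 24 h and did not at 48 h. At 96 h the values were 7.53, 7.47 and 5.57 with 4-OHT against 10.35, 10.18 and 7.87 with vehicle. At 144 h they were 6.58 and 5.46 against 9.59 and 8.78. Replicate C lay below A and B under both agents at 96 h, and each 4-OHT array was below every vehicle array at both times. The difference was -1.59 ± 0.50 (SE) at 48 h (adjusted p = 0.186, and 7.63e-06 with the replicate letter as a block), -2.61 ± 0.50 at 96 h (6.09-fold lower, adjusted p = 0.000893) and -3.16 ± 0.61 at 144 h (8.97-fold lower, adjusted p = 0.000779). The effect differed between the 7 times (F test, adjusted p = 0.0414, passed by 1.81% of all probes), and the late effect (mean of 96 and 144 h) minus the early effect (mean of 6 and 12 h) was -2.63 ± 0.53 (adjusted p = 0.00138, called for 6.45% of all probes). Between 18 and 144 h the level moved by 1.50 ± 0.56 in vehicle (adjusted p = 0.0672) and by -1.36 ± 0.56 in 4-OHT (adjusted p = 0.11), so neither agent's own change passed.

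Timp1, a secreted inhibitor whose transcription is induced by growth factors and cytokines in many cell types, had 2 tested probes that moved alike. On ILMN_3103896 the 4-OHT arrays read 6.53, 6.52 and 8.08 at 18 h and the vehicle arrays 6.58, 6.46 and 8.74, with replicate C above A and B under both agents. At 96 h the values were 6.27, 6.13 and 7.73 with 4-OHT against 8.24, 8.28 and 9.09 with vehicle. At 144 h they were 9.21 and 7.72 against 10.50 and 10.87. The groups overlapped at 18 h and did not overlap at 96 or 144 h. The difference was -1.82 ± 0.50 at 96 h (3.54-fold lower, adjusted p = 0.025) and -2.22 ± 0.61 at 144 h (4.66-fold lower, adjusted p = 0.0207). The second probe, ILMN_2769918, gave -1.74 ± 0.52 and -2.28 ± 0.64 (adjusted p = 0.0486 and 0.0237). For every gene, the change from 18 to 144 h sets replicates A, B and C against A and C. Timp1 was higher at 144 h than at 18 h in the vehicle cultures by 3.42 ± 0.56 (adjusted p = 6.98e-05, called for 14.9% of all probes). With 4-OHT, A rose from 6.53 to 9.21 and C fell from 8.08 to 7.72. Between the 4-OHT group means the change was 1.42 ± 0.56 (adjusted p = 0.092, called for 12.7% of all). That 4-OHT change rested on single arrays: it was 0.68 (adjusted p = 0.659) without 4-OHT A at 144 h, 2.16 (adjusted p = 0.0325) without 4-OHT C at 144 h, and 1.94 (adjusted p = 0.0199) without 4-OHT C at 18 h. Leaving out an array at 144 h leaves 1 in its group, which the fit, here and below, assumes to vary like the other groups. The calls between agents depended on single arrays: without 4-OHT A, 4-OHT B or vehicle C at 96 h the adjusted p was 0.151, 0.18 and 0.122, and without 4-OHT C, vehicle A or vehicle C at 144 h it was 0.284, 0.0501 and 0.107. With the replicate letter as a block the difference at 48 h, -0.84, was called as well (adjusted p = 0.0418 against 1 without it).

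Timp2, the inhibitor that also takes part in the activation of pro-MMP2, was lower on average at every time without being called. Its probe ILMN_2712867 read 7.07, 6.74 and 8.57 with 4-OHT and 7.77, 7.90 and 9.16 with vehicle at 18 h. At 48 h the values were 7.26, 7.33 and 7.94 against 8.47, 8.05 and 9.08. At 144 h they were 8.84 and 8.01 against 9.15 and 9.998. From 48 h the arrays of the agents did not overlap, and within each letter the 4-OHT array was below the vehicle array at all 5 times from 18 h. The differences at 18, 24, 48, 96 and 144 h were -0.82, -1.01, -1.02, -0.79 and -1.15, with standard errors of 0.45 for 3 arrays a group and 0.55 at 144 h and the lowest adjusted p at 0.272. Replicate C stood above A and B at 18 to 48 h under both agents, and with the letter as a block the adjusted p at 24, 48, 96 and 144 h was 0.0245, 0.0109, 0.0284 and 0.00612.

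Timp3, the matrix-bound inhibitor of ADAMTS and ADAM proteases, was not called at any time. On ILMN_2741096 the 4-OHT arrays read 6.50, 6.45 and 8.23 at 48 h and the vehicle arrays 7.14, 7.30 and 8.01. At 96 h they read 8.93, 8.69 and 8.15 against 8.71, 8.74 and 7.42. At 144 h they read 8.23 and 8.78 against 9.24 and 7.96. The agents overlapped at each of these times, and replicates A and C pointed opposite ways at 48 and 144 h. The second tested probe, ILMN_2614759, was dim and detected on 20 of 40 arrays, with differences between -0.26 and 0.18 at 18 to 144 h. Another, ILMN_1232928, was detected on 0 arrays and was not tested. Both agents rose between 18 and 144 h, by 1.59 ± 0.49 in vehicle (adjusted p = 0.0231) and by 1.44 ± 0.49 in 4-OHT (adjusted p = 0.0477). These rises were lost without vehicle A at 144 h (adjusted p = 0.329), vehicle A or B at 18 h (0.0641 and 0.0796), either 4-OHT array at 144 h (0.142 without A, 0.237 without C), or 4-OHT A or B at 18 h (0.121 and 0.227).

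**Figure D2:**
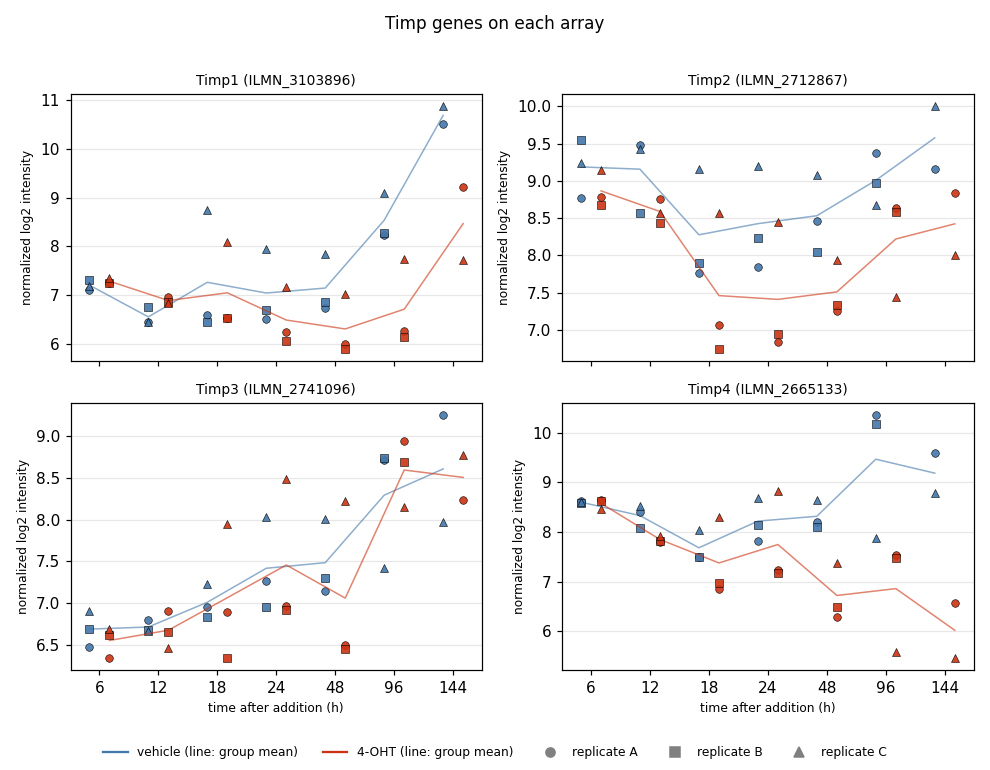
Normalized log2 intensity (vertical axis) of the lead probe of each Timp gene on all 40 arrays against time (horizontal axis, h, evenly spaced categories). Each point is 1 array, its shape is the replicate letter, its colour the agent, and lines join group means. For Timp4 and Timp1 all 4-OHT points lie below all vehicle points at 96 and 144 h, and for Timp3 the agents overlap there.

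The 4 inhibitors were then compared with each other. Because levels of different probes cannot be set against each other, the comparison used the 4-OHT minus vehicle difference of each lead probe, averaged over 18, 24, 48, 96 and 144 h (28 arrays), with an exact permutation of the agent within each time. The test ran over 960000 arrangements, is two-sided, and can give no p below 2.08e-06. The mean difference was -1.63 for Timp4 (exact permutation test, adjusted over 4 genes, p = 0.00142), -1.13 for Timp1 (p = 0.00454) and -0.96 for Timp2 (p = 0.00142). For Timp3 it was -0.03 (exact permutation test, p = 0.914), with a 95% interval from the limma fit of -0.44 to 0.39. The same average in limma was called for 12.4% of all tested probes.

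Of the 6 pairs of inhibitors, the 3 with Timp3 differed. The mean difference of Timp4 was below that of Timp3, with Timp3 minus Timp4 at 1.60 (exact permutation test, adjusted over 6 pairs, p = 2.5e-05). By the same exact test Timp1 minus Timp3 was -1.10 (p = 0.00551) and Timp2 minus Timp3 was -0.93 (p = 0.00122). The exact test gave Timp1 minus Timp2 as -0.17 (p = 0.531), Timp2 minus Timp4 was 0.67 (p = 0.0789), and Timp1 minus Timp4 was 0.50 (p = 0.207, and 0.0414 when arrays were permuted within letters as well). In the exact test without vehicle C at 96 h the last was 0.71 (p = 0.0398) and Timp2 minus Timp4 0.80 (p = 0.0398), and without vehicle C at 18 h Timp2 minus Timp4 was 0.72 (p = 0.0485). By this mean Timp1, Timp2 and Timp4 are therefore given in no order. The mean averages over changes of sign. Timp2 minus Timp4 was -0.51, -0.54, 0.57, 1.82 and 2.01 at 18, 24, 48, 96 and 144 h. In that value the agents overlapped at 18 h and not at the later times. Timp1 minus Timp2 was 0.60, 0.46, 0.18, -1.04 and -1.07, without overlap at 144 h alone. A mean near 0 therefore does not show that 2 genes moved alike, and no pair was tested at a single time.

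The separation of Timp3 depended on the replicates used. In replicates A and B the mean difference of Timp3 was -0.42 and negative at 4 of 5 times, and in replicate C it was 0.59 and positive at 5 of 5. In A and B alone Timp3 was itself called (exact permutation test, adjusted over 4, p = 0.0278), and Timp1 minus Timp3 was -0.50 (p = 0.111) and Timp2 minus Timp3 -0.36 (p = 0.147), while Timp1 minus Timp4 was 0.85 (p = 0.00463). Timp1, Timp2 and Timp4 had negative means in both sets: -0.93, -0.78 and -1.78 in A and B, and -1.35, -1.14 and -1.30 in C. Their differences were negative at 5 of 5 times, except Timp1 in A and B (4 of 5) and Timp4 in C (3 of 5). What sets replicate C apart was not tested.

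**Figure D3:**
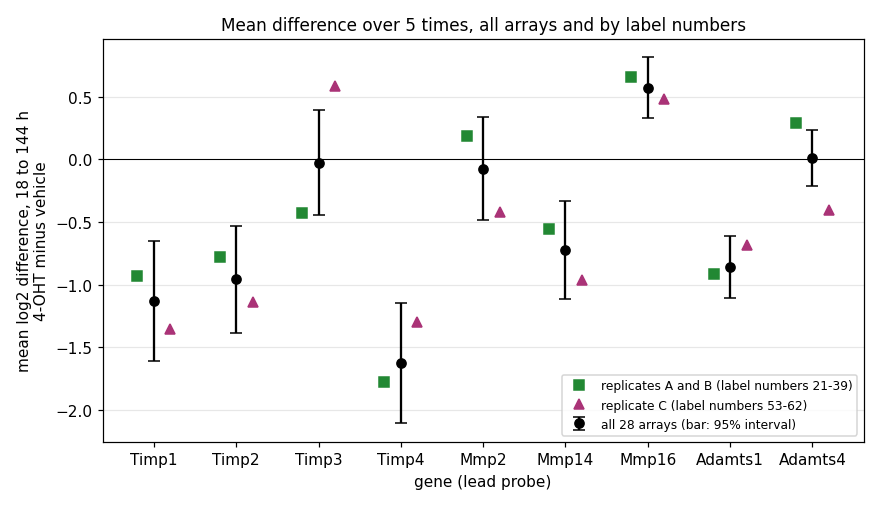
Mean difference between 4-OHT and vehicle over the 5 times from 18 to 144 h (vertical axis, log2) for the lead probe of each gene (horizontal axis). Black circles are all 28 arrays with the 95% interval of the limma fit, green squares are replicates A and B, and purple triangles are replicate C. Timp3, Mmp2 and Adamts4 lie on opposite sides of 0 in the 2 sets of replicates, and the other 6 genes on the same side.

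No difference was called for the synapsin genes around the inhibitors. On the tested Syn2 probe (ILMN_1215972), around Timp4, the difference was 0.34 ± 0.26 at 96 h (limma adjusted p = 0.723) and 0.20 ± 0.32 at 144 h (adjusted p = 0.888). Syn1, around Timp1, gave 0.56 and 0.37 on ILMN_1235133 and 0.43 and 0.69 on ILMN_2762083 at those times (lowest adjusted p = 0.413). The tested Syn3 probe (ILMN_1229220), around Timp3, gave 0.02 and -0.02.

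Among the proteases, Adamts1, a secreted enzyme that cuts versican and aggrecan, was lower with 4-OHT than with vehicle at 96 and 144 h. Its probe ILMN_1230129 read 5.25, 5.27 and 4.83 with 4-OHT and 6.32, 6.31 and 6.01 with vehicle at 18 h. At 96 h the values were 5.05, 5.23 and 5.32 against 6.39, 6.86 and 5.81. At 144 h they were 5.89 and 5.31 against 6.62 and 6.71. The agents did not overlap at any of these times. The difference was -1.10 ± 0.26 at 18 h (adjusted p = 0.131, and 0.0105 with the letter as a block), -1.15 ± 0.26 at 96 h (2.22-fold lower, adjusted p = 0.00508) and -1.06 ± 0.32 at 144 h (2.09-fold lower, adjusted p = 0.0368). Between these times, at 24 and 48 h, the difference was -0.44 and -0.56 with overlapping arrays, neither called. The late minus early effect was -0.86 (adjusted p = 0.0554). The mean difference over 18 to 144 h was -0.86, with a 95% interval of -1.11 to -0.61 (limma adjusted p = 3.14e-06). From 18 to 144 h neither agent's own change passed (0.45 in vehicle and 0.48 in 4-OHT, adjusted p = 0.332 and 0.298). The call at 96 h was lost without vehicle B (adjusted p = 0.0758). That at 144 h was lost without 4-OHT C (0.293), vehicle A (0.0906) or vehicle C (0.127). The dimmer probe ILMN_2761082, detected on 27 of 40 arrays, gave -0.50 ± 0.20 at 96 h (adjusted p = 0.203) and -0.79 ± 0.25 at 144 h (adjusted p = 0.046). The probes disagreed at 6 h, with 0.12 on the first and -0.78 on the second, neither of them called. On the second the late minus early effect was -0.08 (limma adjusted p = 0.908). ILMN_1238495 was detected on 0 arrays and was not tested.

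Mmp16, a membrane-type metalloproteinase that is anchored by a transmembrane segment, was the member with called higher values in 4-OHT than in vehicle. Its dimmer tested probe, ILMN_1217071, was detected on 31 of 40 arrays. On that probe the 4-OHT arrays read 5.93, 6.23 and 6.02 at 96 h and the vehicle arrays 5.41, 5.38 and 5.34. At 144 h the values were 6.36 and 6.21 against 4.84 and 4.97. The agents did not overlap, and the spread within each group was small against the gap. The difference was 0.68 ± 0.19 at 96 h (1.60-fold higher, adjusted p = 0.0318) and 1.38 ± 0.23 at 144 h (2.60-fold higher, adjusted p = 0.000146). The effect differed between times (F test, adjusted p = 0.00358), with uncalled differences of -0.36 at 6 h and -0.30 at 12 h. In vehicle this probe fell by 0.80 ± 0.21 between 18 and 144 h (adjusted p = 0.00957), while its change in 4-OHT was 0.44 (adjusted p = 0.178). The brighter probe ILMN_2980226 gave 0.78 ± 0.26 at 96 h (adjusted p = 0.0802, and 0.0204 with the letter as a block) and 1.35 ± 0.31 at 144 h (adjusted p = 0.00517), and its own changes from 18 to 144 h were -0.22 in vehicle (adjusted p = 0.67) and 0.78 in 4-OHT (adjusted p = 0.0687). At 144 h its 4-OHT arrays read 7.51 and 6.42 and its vehicle arrays 5.73 and 5.50, and without the 4-OHT array of replicate A the difference was 0.80 (adjusted p = 0.248). The mean difference of ILMN_2980226 over 18 to 144 h was 0.57, with a 95% interval of 0.33 to 0.82 (limma adjusted p = 0.000849). Probe ILMN_1246138 was detected on 0 arrays and was not tested.

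Mmp14, the membrane-type enzyme that activates pro-MMP2, had lower means with 4-OHT from 18 h without being called at any single time. Its mean difference over 18 to 144 h was -0.72, with a 95% interval of -1.12 to -0.33. That mean was called (limma adjusted p = 0.00907, called for 12.4% of all tested probes). Its probe ILMN_1240726 read 6.26, 6.43 and 6.16 with 4-OHT and 6.86, 7.19 and 6.92 with vehicle at 48 h. At 96 h the values were 7.84, 7.71 and 5.93 against 8.38, 8.87 and 7.17. At 144 h they were 8.13 and 7.08 against 8.74 and 8.70. Replicate C lay below A and B under both agents at 96 h, where the agents overlapped, and at 48 and 144 h they did not overlap. The difference was -0.98 ± 0.41 at 96 h (adjusted p = 0.238) and -1.12 ± 0.51 at 144 h (adjusted p = 0.236). With the letter as a block the adjusted p was 0.0389 and 0.0442, and without vehicle C at 96 h the difference there was -1.47 (adjusted p = 0.0374), but without 4-OHT C it was -0.37 (adjusted p = 0.804). In vehicle Mmp14 rose by 1.81 ± 0.46 between 18 and 144 h (adjusted p = 0.00643), and in 4-OHT the change was 0.91 ± 0.46 (adjusted p = 0.202). The second probe, ILMN_1225091, was detected on 2 arrays and was not tested.

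Mmp2, the gelatinase that MMP14 activates, and Adamts4, an aggrecanase, showed no called difference. On the Mmp2 probe ILMN_2678218 the 4-OHT arrays read 8.16, 7.82 and 6.14 at 96 h and the vehicle arrays 7.41, 7.20 and 6.25. At 144 h the values were 6.77 and 6.80 against 6.52 and 8.28. Replicate C was the lowest of each group at 96 h and the highest vehicle array at 144 h, and the agents overlapped at both times. The differences were 0.42 ± 0.43 (adjusted p = 0.861) and -0.62 ± 0.53 (adjusted p = 0.684), and the mean over 18 to 144 h was -0.07 with a 95% interval of -0.48 to 0.34. Without vehicle C the difference at 144 h was 0.26 (adjusted p = 0.888). On the Adamts4 probe ILMN_1230152 the 4-OHT arrays read 9.14, 8.98 and 8.94 at 96 h and the vehicle arrays 8.40, 8.60 and 9.16. At 144 h the values were 8.98 and 8.78 against 8.81 and 10.10, where vehicle C stood alone. Without vehicle A, which leaves vehicle C as the sole control, the difference at 144 h moved from -0.58 (adjusted p = 0.307) to -1.22 (adjusted p = 0.00866), and without vehicle C it was 0.06 (adjusted p = 0.954). Adamts4 was higher at 144 h than at 18 h in vehicle by 1.65 ± 0.26 (adjusted p = 5.11e-05) and in 4-OHT by 1.28 ± 0.26 (adjusted p = 0.00133, and 0.0524 without 4-OHT A at 144 h).

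**Figure D4:**
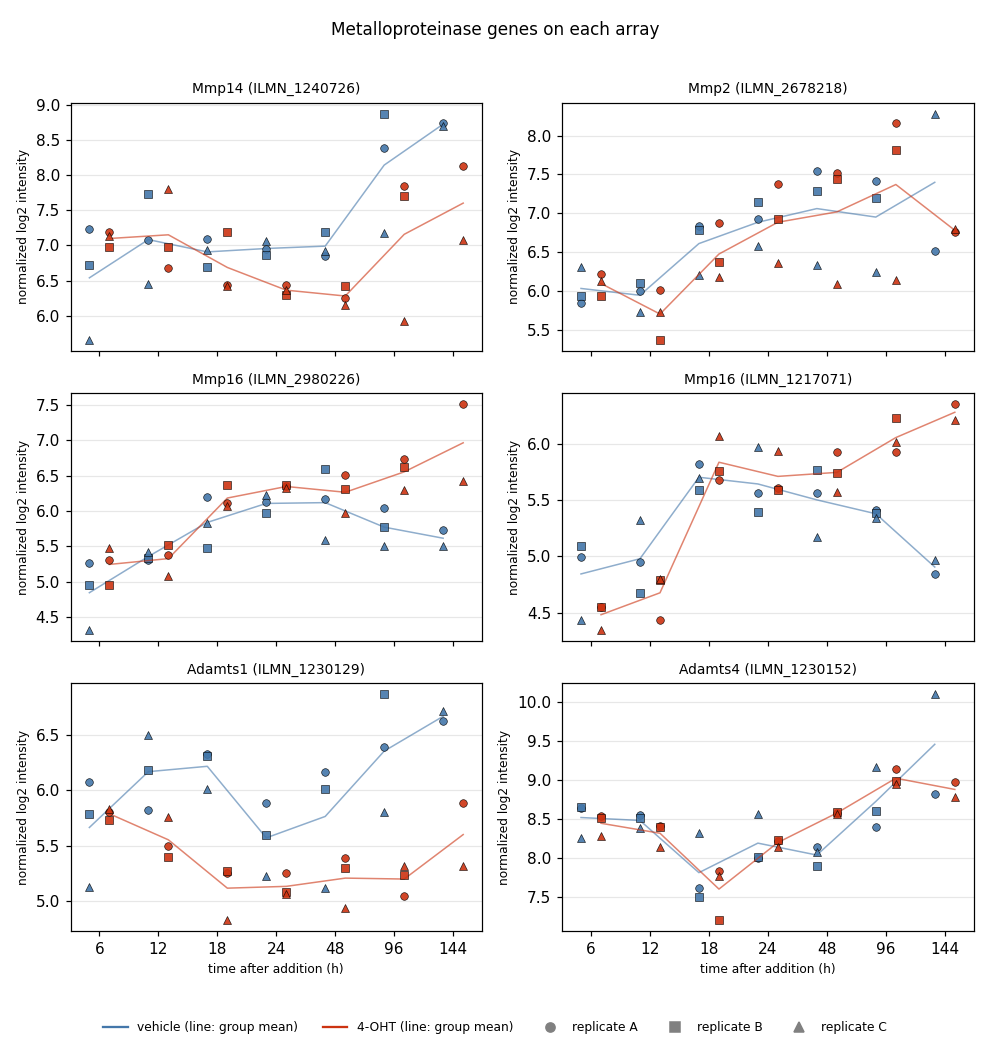
Normalized log2 intensity (vertical axis) of protease probes on all 40 arrays against time (horizontal axis, h, evenly spaced categories), with points, shapes, colours and lines for arrays, replicate letters, agents and group means. Both Mmp16 probes have their 4-OHT points above their vehicle points at 96 and 144 h, Adamts1 has them below, and Mmp2 and Adamts4 overlap.

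The members' profiles over the 14 group means give a description of which moved alike, in points that share arrays and normalization. Timp1 and Mmp14 were the closest pair of different genes (Pearson r = 0.90), followed by Timp2 with Adamts1 (0.81) and Timp3 with Mmp2 (0.81). Timp4 and Mmp16 ran opposite (-0.71). Among all tested genes, the 5 profiles most like Timp4 were Igsf11 (0.96), Palmd (0.94), Id1 (0.94), Ctsc (0.94) and Apobec1 (0.93). Those most like Timp1 were Rgs4 (0.97), Rasl11a, Esrrg, Ociad2 (0.96 each) and Prkacb (0.96). For Timp2 they were Klf7 (0.96), Tnfrsf21 (0.95), Nfix (0.95), Extl3 (0.94) and Rhoc (0.93), and for Timp3 Mmd2 (0.97), Scrg1 (0.96), Trnp1 (0.96), Dtx1 (0.96) and Psd2 (0.96).

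Other enzymes of these families were measured beside the members, and their values below are 4-OHT minus vehicle at the same time (log2). In the lists here and below, a gene counts as called if any of its tested probes was called. The share of all tested probes called was 4.50% at 96 h and 6.61% at 144 h, counted in probes and not in genes. The lists, too, were chosen with earlier results of these data known, so their counts are a description. Of 8 tested other MMP genes, 1 was higher at 96 h and 2 were higher and 1 lower at 144 h. Mmp9, the second gelatinase, gave 1.52 ± 0.46 at 96 h (adjusted p = 0.0468, with overlapping arrays) and 2.41 ± 0.56 at 144 h (5.33-fold, adjusted p = 0.00488). The Mmp9 probe, ILMN_2711075, was dim, with a mean level of 4.74 over all arrays, and was detected on only 7 of them. Mmp17, a membrane-type enzyme held by a lipid anchor, was higher by 1.68 ± 0.42 at 144 h (adjusted p = 0.0086). Mmp11, known as stromelysin 3, was at least 1.23-fold lower there (adjusted p = 0.0297) and not detected on either 4-OHT array. The Mmp11 probe, ILMN_2696711, was dim as well, with a mean level of 4.33 over all arrays, and was detected on only 5 of them. Of 9 tested other ADAMTS genes, 2 were higher at both late times and 0 lower. Adamts16 was higher from 24 h (1.89 ± 0.38, adjusted p = 0.0149), reached 2.79 ± 0.38 at 48 h (6.90-fold, adjusted p = 3.2e-05) and was 1.82 ± 0.47 at 144 h (adjusted p = 0.0126). Adamts9, which cuts versican and aggrecan, was higher by 1.01 ± 0.22 at 96 h and by 1.50 ± 0.28 at 144 h (adjusted p = 0.00444 and 0.000388). Of 9 tested ADAM genes, 0 were called at either time.

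Among 6 tested binding partners and other inhibitors, 2 were lower at 96 h and 1 at 144 h. Cd63 codes for a tetraspanin that binds TIMP1 at the cell surface. It was lower at 144 h on ILMN_2653617, at -1.25 ± 0.31 (2.38-fold lower, adjusted p = 0.00824). At 96 h it was lower on ILMN_3052430, at -0.71 ± 0.19 (adjusted p = 0.0249). These values come from a different probe at each time and do not form 1 time course. Values of another tested Cd63 probe, ILMN_3128907, are not given here. Spock2, a testican proteoglycan, was lower at 96 h by its mean, -0.84 ± 0.22 (adjusted p = 0.0184), with overlapping arrays. Of 7 tested activators and plasminogen-system genes, 1 differed: Pcsk6, a proprotein convertase, was higher by 1.25 ± 0.22 at 96 h and by 1.89 ± 0.26 at 144 h (3.70-fold, adjusted p = 8.67e-06).

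Substrates differed in both directions. Of 7 tested genes of the perineuronal matrix, 3 were higher at 96 h and 4 at 144 h, and 0 were lower. Tnr, which codes for tenascin-R and is made by oligodendrocytes, was higher from 48 h (0.97 ± 0.21, adjusted p = 0.0117), with 2.26 ± 0.26 at 144 h (4.77-fold, adjusted p = 3.28e-07). Bcan, the lectican brevican, was higher by 1.35 ± 0.33 at 144 h (adjusted p = 0.00834), and Tnc, which codes for tenascin-C, by 0.86 ± 0.23 (adjusted p = 0.0163). The Vcan probe ILMN_2555157, the dimmest tested probe of that gene, was higher by 0.68 ± 0.21 (adjusted p = 0.0481). Its mean level was 4.63 over all arrays, and it was detected on 14 of them. Of 12 tested basement membrane genes, 3 were lower at both late times and 0 higher. Lamb2, a laminin beta chain, was lower, at -2.06 ± 0.40 at 96 h and -2.35 ± 0.49 at 144 h (5.08-fold lower, adjusted p = 0.00161). Lama5, a laminin alpha chain, was lower, at -1.33 ± 0.25 and -1.31 ± 0.30 (adjusted p = 0.000502 and 0.00444), and Nid2, which codes for nidogen 2, was lower, at -1.19 ± 0.33 and -1.75 ± 0.40 (adjusted p = 0.0272 and 0.00471).

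**Figure D5:**
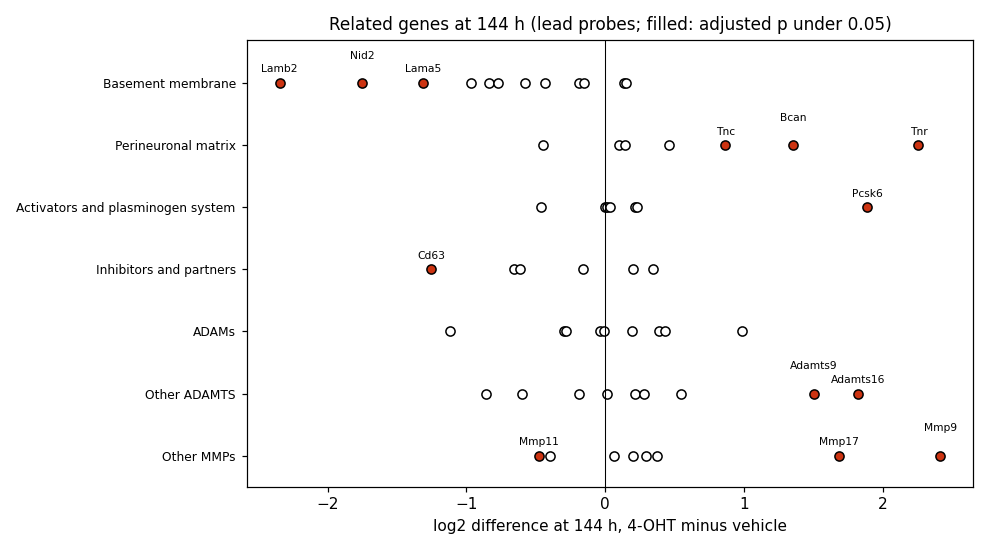
Difference between 4-OHT and vehicle at 144 h (horizontal axis, log2) for the lead probe of every tested gene in 7 groups of related genes (vertical axis). Filled points have an adjusted p under 0.05 and carry the gene's symbol. Lamb2 at -2.35 is the lowest and Mmp9 at 2.41 the highest of the genes drawn. The Mmp9 and Mmp11 probes are dim and were detected on only 7 and 5 of all arrays.

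Markers of other cell types differed between the agents at the same times. Of 10 tested oligodendrocyte-lineage markers, 7 were higher with 4-OHT at 96 h and at 144 h (Pdgfra, Sox10, Gpr17, Enpp6, Mbp, Cnp and Mag). Their summed level (lead probes, linear normalized intensity above the offset) was 23860 to 33209 on the 4-OHT arrays at 144 h and 11721 to 15038 on the vehicle arrays. Of 6 astrocyte markers, Gja1, Gfap and Slc1a2 were lower and S100b higher at 144 h, with summed levels of 763 to 1415 with 4-OHT and 2832 to 3029 with vehicle. Of 8 neural stem cell markers 1, Slc1a3, was lower, and of 4 tested neuronal markers 3 (Dcx, Map2 and Syt1) were higher at 144 h. The part of these shifts in the members' differences was not tested.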

How the data were processed

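Per the labels, total RNA of the 40 samples was labelled with biotin and read on BeadChips. The deposited intensity of each probe and its detection p-value come from GenomeStudio, and the authors' log2 values were made with lumi and quantile normalization, per the series' design text. Versions of these programs were not stated. Of 45281 probes, 21 had fields out of step with the header and were left out. Of the rest, 34872 carried 1 gene symbol and 18 several.

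Intensities were background-corrected and quantile-normalized with neqc of limma 3.58.1 (R 4.3.3, offset 16), and a probe was tested if its detection p was under 0.01 on at least 3 arrays. A group-means model over all arrays (26 residual degrees of freedom) was fitted with limma, moderated with an intensity trend. All tests were two-sided. P-values were adjusted by Benjamini-Hochberg over the tested probes and called under 0.05. Levels and differences are log2, with SE from the model. If all arrays of a group had a detection p of at least 0.05, the fold is a bound against the lowest detected signal of each array. Each gene's lead probe is its brightest tested one. From related genes, those called at any time are named (at most 8 a list). The members and lists were chosen with earlier results of these data known.

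Same-letter arrays of the agents deviated together at 18 to 96 h (residual r from 0.367 to 0.783), but so did A with B (0.303 to 0.636), and C ran against both (-0.753 to -0.475), so these values set A and B apart from C and do not show that A and B are matched letter by letter. Same-letter r at 6 h was 0.116, -0.0445 and 0.00852, and at 12 h 0.421, 0.185 and -0.143. The labels do not state the pairing. The fit with the letter as a block is given where it changes a call. The steps were tested on simulated data. The number of arrays limits the precision.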

Additional observations from a re-analysis of the deposited data

Results flagged for a closer look

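The effect of 4-OHT differed between times for 3 genes in at least 1 of 2 tests of the difference itself on the limma fit, late minus early and the F test over the 7 times. The late effect (96 and 144 h averaged) minus the early effect (6 and 12 h averaged) was -2.23 for Timp1 on ILMN_3103896 (adjusted p = 0.00663) and -2.14 on ILMN_2769918 (adjusted p = 0.0139), while the F test did not pass for either (adjusted p = 0.315 and 0.456). For Timp4 it was -2.63, and the F test of the effect between the 7 times gave an adjusted p of 0.0414. For Mmp16 it was 0.88 on ILMN_2980226 (adjusted p = 0.0449) and 1.36 on ILMN_1217071 (adjusted p = 2.52e-05). On the latter the F test gave an adjusted p of 0.00358, against 0.556 on the former. The early differences at 6 and 12 h were 0.40 and -0.03 on ILMN_2980226 and -0.36 and -0.30 on ILMN_1217071, none of them called. Part of the 1.36 on ILMN_1217071 therefore comes from its negative early differences, and at 6 h the probes differed in sign. The value of ILMN_2980226 lost its call when any 1 of 15 arrays was left out, among them the 4-OHT array of replicate A at 144 h (0.61, adjusted p = 0.218). The early arrays carry another run of label numbers than the late ones, and each effect was taken within its own time.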

How the results depend on the processing

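No alternative turned the direction of a called result. With the replicate block, member probes called at 18, 24, 48, 96 and 144 h were 1, 1, 3, 8 and 9, Timp1 minus Timp4 (0.50) had an adjusted p of 0.0414, and the pairing changed no call of the other 5 pairs. With the label number runs as a block the counts at 18 to 96 h were 1, 1, 4 and 8, and that pair's adjusted p was 0.0246. In replicates A and B alone (with all of 6 and 12 h) they were 1, 2 and 5 at 18, 24 and 48 h. There Timp3 was -0.42 (adjusted p = 0.0278), Timp1 minus Timp3 -0.50 (0.111), Timp2 minus Timp3 -0.36 (0.147) and Timp1 minus Timp4 0.85 (0.00463). At 96 h median scaling left 1 call, testing all probes 3, and each time fitted alone 0, and 0 also at 144 h, where fewer arrays enter each fit. Under median scaling the median difference of all tested probes was 0.34 at 6 h and -0.11 at 144 h. Array weights gave 1, 3, 9, 10 and 2 calls at 18, 24, 48, 96 and 144 h. Leaving out 1 array gave 0 to 1 calls at 6 h, 2 to 4 at 96 h and 3 to 5 at 144 h, Timp1 minus Timp4 from 0.27 to 0.71 and Timp2 minus Timp4 from 0.50 to 0.84. Beyond the arrays themselves the cause of these shifts was not tested. Over all single-gene and pair values, 65 gained and 24 lost a call under the settings that keep the arrays or drop a run of them, and 22 gained and 34 lost one when 1 array was left out.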

Other observations

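Mmp2 and Adamts4 shared with Timp3 a mean difference of opposite sign in the 2 sets of replicates over 18 to 144 h. Mmp2 was 0.18 in replicates A and B and -0.42 in C, where it was negative at 5 of 5 times. Adamts4 was 0.29 in A and B and -0.41 in C, where it was negative at 4 of 5. The difference between the sets was not tested.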
